A study of Sus scrofa with 9 samples.

Results

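RLN2 and INSL3, 2 of the 7600 genes named on the array, encode peptide hormones of the insulin and relaxin family, and their transcripts were followed on 9 single-colour microarrays of boar testis biopsies. The members were the probes whose gene name or description in the array files names relaxin or insulin-like 3, receptors excluded, and 8 of the 60889 probes that are not array controls met that rule. These are 2 probes of RLN2, 5 of INSL3 and 1 of RLN3, a gene of the same family that the wording also takes in. A further 6 probes carry the sequence or the reference transcript of a member under another label, 3 for RLN2, 2 for INSL3 and 1 for RLN3. All 14 passed the filter on low signals and are described here. RLN2 was put forward because its t(1;14) arrays stood far above the controls, and INSL3 was chosen together with it, so their differences between these groups are given as a description without a test.

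The 9 arrays fall into groups of 3 by semen and karyotype, all of testis. The control arrays hold biopsies of boars with a normal karyotype (2n=38,XY) and control semen parameters. The oligospermic arrays hold biopsies with the same normal karyotype and oligospermic semen, and the sources used here do not state from how many boars they came. The t(1;14) arrays hold 3 samples of 1 Landrace × Duroc crossbred boar, oligo-astheno-teratospermic, that carries a balanced reciprocal translocation between chromosomes 1 and 14. The study calls the carrier young, and no exact age is given. Methods and results of the study differ on whether each control array holds 1 of 3 fertile boars or a pool. The tests therefore compare arrays, and everything else that sets the t(1;14) boar apart from the other animals cannot be told apart from the translocation. Each of the 3 slides carried 1 array of each group.

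Relaxin and INSL3 are made as prohormones with a B chain, a connecting peptide and an A chain. The connecting peptide is cut out, and the remaining chains are held together by disulfide bonds. Relaxin, the product of RLN2, acts through the receptor RXFP1 and is best known for the remodelling of connective tissue and blood vessels around pregnancy, and the boar testis is one of its sources outside the ovary. INSL3 is a major secreted peptide of mature Leydig cells, the steroid-producing cells between the seminiferous tubules. It acts through RXFP2 and drives the descent of the testis in the fetus. Both receptors couple to G proteins and change cyclic AMP in the target cell.

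The probes are shown because INSL3 gave different answers with different sequences and RLN2 did not. All are 60 bases long. The 5 RLN2 probes hold 3 sequences. Sequence 3 stands on 3 probes and shares a run of 51 bases, in capitals, with sequence 2.
RLN2 sequence 3: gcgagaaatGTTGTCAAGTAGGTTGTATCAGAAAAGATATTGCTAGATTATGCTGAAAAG
RLN2 sequence 2: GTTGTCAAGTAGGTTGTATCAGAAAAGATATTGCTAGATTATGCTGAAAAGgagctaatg
In the frame that starts at base 3 of either probe, a TGA stop follows 17 codons in sequence 3 and 14 codons in sequence 2. These codons are the end of the A chain of relaxin, so both probes read the last part of the coding region. The array files place the start of sequence 1 at base 604 of its target and that of sequence 2 at base 502. Whether both starts count on the same target, and so whether sequence 1 lies 3′ of the others, was not determined. The first 30 bases of sequence 1, given for identity with no part in capitals, follow.
RLN2 sequence 1: tcacttatgcctctgtcacccactgattat

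The 7 INSL3 probes hold 4 sequences. Sequence 1 stands on 4 probes and holds the letters AATAAA, the core of a polyadenylation signal, from base 37, as do 11.4% of the 60531 probes that are not named antisense, searched on the strand given in the files. Sequences 2 and 4 come from expressed sequence tags that the files describe as similar to INSL3, and capitals mark the run each shares with sequence 1, which is 16 bases for sequence 2 and 23 bases for sequence 4.
INSL3 sequence 1, bases 1 to 30: GCATTTCATGACACCCcttttgttttctca
INSL3 sequence 2, bases 1 to 30: ccctGCATTTCATGACACCCtttgtttctc
INSL3 sequence 1, bases 31 to 60: atagtaaATAAATAAGATGCCTGCAGACTA
INSL3 sequence 4, bases 1 to 30: agtagATAAATAAGATGCCTGCAGACTAtc
INSL3 sequence 3, bases 1 to 30: agccatggacccaccaacatgtccagaaac
With gaps allowed, 51 bases of sequence 2 can be laid on sequence 1 with every one equal. Sequence 3 is INSL3 by the gene name in the files alone and shares no run above 5 bases with sequence 1. No run shared between an RLN2 and an INSL3 probe exceeds 7 bases.

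Between 37087 and 40632 probes per array were well above background, with medians of 38722 for control, 38238 for oligospermic and 39374 for t(1;14), and 52 to 275 probes per array were saturated. The median SD of a probe within a group was 0.24 on the log2 scale for control, 0.18 for oligospermic and 0.13 for t(1;14). The number of arrays limits the precision. The t(1;14) SD is the spread among samples of 1 boar and does not measure a spread between animals. The thresholds of the study were kept: a called probe has an adjusted p of 0.01 or less and a log2 difference of 2 or more in size. Over the 41105 probes tested, 5.82% were called between t(1;14) and control, 1.41% as higher, and 0.112% between oligospermic and control. The last share is 46 probes, a count that became 30 with replicate number as a block, 96 without control array 1 and 126 without control array 2. The median log2 difference over all probes was 0.13 for t(1;14) and 0.00 for oligospermic, both against control. Both comparisons use the same control arrays.

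RLN2 was lowest in control testis, higher in oligospermic testis and highest in the t(1;14) testis. With sequence 1, the processed intensity was 61.5, 53.7 and 34.0 units on the control arrays. It was 160.6, 100.6 and 102.1 units on the oligospermic arrays and 850.8, 1514.2 and 963.7 units on the t(1;14) arrays. Every oligospermic array was above every control array and below every t(1;14) array. After quantile normalization the log2 signal was 5.63 ± 0.67 (SD, n = 3) in control, 6.87 ± 0.18 in oligospermic and 10.17 ± 0.32 in t(1;14). The t(1;14) arrays stood 4.54 log2 units above control with an SE of 0.32, which is 23.3-fold. They stood 3.31 units above oligospermic, or 9.90-fold. RLN2 had the highest difference between t(1;14) and control of the 6605 genes with 1 tested probe each, which describes the contrast it was chosen from. In a biopsy, more cells of a type and more RNA per cell cannot be told apart. The study describes severe hyperplasia of the interstitial cells and moderate atrophy of the seminiferous tubules in the t(1;14) testis. The part of these changes in the RLN2 and INSL3 signals was not tested.

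The other RLN2 sequences gave the same order of the groups. With sequence 2 the log2 signal was 4.33, 4.51 and 3.05 on the control arrays, 5.73, 5.59 and 5.19 on the oligospermic arrays and 8.60, 8.75 and 9.04 on the t(1;14) arrays. Control array 3 was not well above background with this probe. The 3 copies of sequence 3 differed from each other by 0.06 to 0.17 log2 units on the t(1;14) arrays and by 0.24 to 0.31 units on the oligospermic arrays. On control arrays 1 and 3, where some of the copies were not well above background, they differed by 1.00 and 1.42 units. The spread between copies was therefore smaller than the distance between t(1;14) and the other groups on every array.

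**Figure D1:**
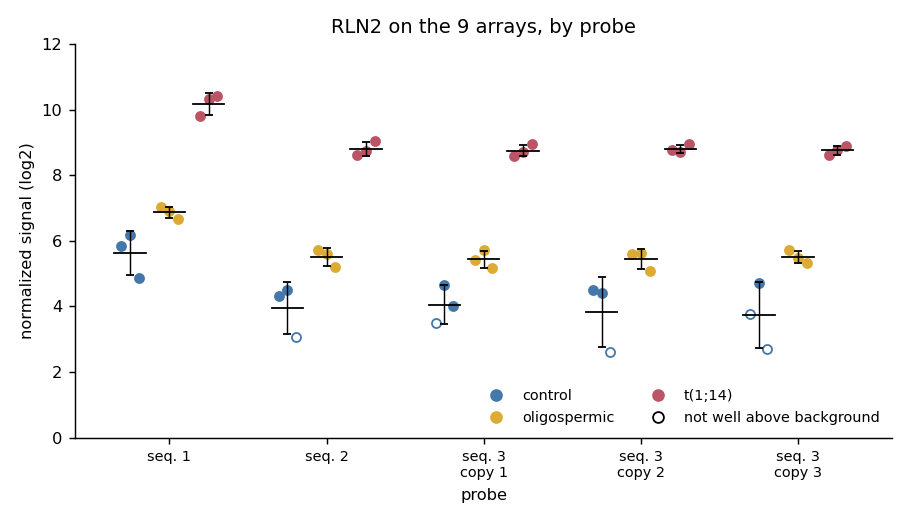
RLN2 signal on the 9 arrays. The y axis is the quantile-normalized signal on the log2 scale and the x axis the 5 probes, where seq. 1 to 3 are the 3 sequences and copies repeat sequence 3. Points are arrays, open where not well above background, bars are the group mean ± SD. The t(1;14) arrays lie apart above all others with every probe, and the oligospermic arrays lie above the control arrays.

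Across the 5 probes, t(1;14) exceeded control by 4.54 to 5.03 log2 units and oligospermic by 3.25 to 3.37 units. The upper end comes from copy 3 of sequence 3, which was well above background on 1 of 3 control arrays, while sequence 1, the lower end, was so on all 9 arrays. All 5 were called between t(1;14) and control, beside the 1.41% of all probes called as higher, and nothing is read from that count because RLN2 was chosen from this contrast. The difference stood on each slide. With sequence 1, t(1;14) minus control was 4.47 on slide 1, 4.23 on slide 2 and 4.93 on slide 3.

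Between oligospermic and control testis, the RLN2 probes differed by 1.24 to 1.78 log2 units, and none passed the test, beside 0.224% of all probes that did at an adjusted p of 0.01 or less. For sequence 1 the difference was 1.24 with an SE of 0.32, or 2.35-fold, with a 95% interval of 0.51 to 1.97 and an adjusted p of 0.133 in limma over all 41105 probes. The adjusted p of the 5 probes lay between 0.0660 and 0.172, while all 5 had an unadjusted p of at most 0.00733. In the same comparison 5331 of the 41105 probes had an unadjusted p under 0.05. The groups did not overlap with any of the 5 probes, and 7.87% of all probes were higher in oligospermic without overlap, and 7.66% lower. The probes share sequence and RNA, so they are not 5 separate measurements. By slide, the difference of sequence 1 was 1.19, 0.72 and 1.80, above 0 on each. In rank, RLN2 stood 52nd of 6605 genes from the highest difference. The control arrays are those of the contrast that RLN2 was chosen from, so low values there also widen this difference. Without control array 3, the lowest, it was 0.86.

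INSL3 gave a signal near the top of the scanner range in all groups. With copy 1 of sequence 1 the processed intensity was 60677, 44420 and 58718 units in control, 61075, 42099 and 45265 in oligospermic, and 70047, 77133 and 62620 in t(1;14). The t(1;14) arrays were the brightest, yet 2 of the 3 were flagged as saturated for this spot, with 87.1% of its pixels at the limit on array 1 and more on array 2. Over the 4 copies, the saturation flag was set for 4, 4 and 1 copies on the t(1;14) arrays 1 to 3, for 0, 0 and 1 on the control arrays, and for 3, 0 and 0 on the oligospermic arrays.

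The group means of these 4 copies cannot give the size of a difference. The flag was set on 2, 2, 2 and 3 of the 3 t(1;14) arrays in copies 1 to 4. On slide 2, copies 1 to 3 had no saturated pixels, and t(1;14) minus control was 0.27, 0.33 and 0.27 there. Those values rest on 1 array per group, and sequence 2 read 0.84 on the same slide. The log2 signal of copy 1 was 15.76 ± 0.05 (SD, n = 3) in control, 15.58 ± 0.20 in oligospermic and 16.10 ± 0.08 in t(1;14). As measured, with the saturated spots at their values, t(1;14) minus control was 0.34, 0.38, 0.17 and 0.09 units in copies 1 to 4. Copy 4 was also saturated on 1 control array, so its reading of 0.09 has no direction or size as a difference. Few probes this bright were much higher in t(1;14). Of the 611 tested probes with a control mean of 15 or more, 1 was higher by at least 1 log2 unit, at 1.05, which is 0.164%, while 9.22% of the 13637 probes with a control mean of 5 to 8 were.

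The dimmer INSL3 probes showed a larger difference. Sequence 2, which was not saturated on any array, read 18210, 20061 and 28774 units in control, 20474, 19992 and 20015 in oligospermic, and 39452, 37574 and 34038 in t(1;14). All t(1;14) arrays were above all others, and control and oligospermic arrays overlapped. On the log2 scale it went from 14.38 ± 0.35 in control to 15.21 ± 0.22 in t(1;14), a difference of 0.83 with an SE of 0.22, or 1.78-fold. By slide the difference was 0.99, 0.84 and 0.68.

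Sequence 3 read 88.8, 103.1 and 85.9 units in control, 121.1, 87.9 and 64.8 in oligospermic, and 324.0, 472.1 and 275.1 in t(1;14). It was 1.92 log2 units higher in t(1;14) than in control with an SE of 0.26, or 3.80-fold. Sequence 4 read 24.7, 33.8 and 57.1 units in control, 22.4, 31.2 and 36.0 in oligospermic, and 156.4, 105.3 and 127.4 in t(1;14), which is 1.78 log2 units with an SE of 0.40, or 3.42-fold. In both, t(1;14) stood apart above the other groups. Over the sequences labelled INSL3 that had no saturated spots, the difference thus ranged from 0.83 to 1.92 log2 units. In control, sequences 3 and 4 read at most 103.1 and 57.1 units, where copy 1 of sequence 1 read at least 44420. Whether sequences 3 and 4 measure the same transcript was not tested. Which of the probes is closest to the change in the transcript was not tested, and sequence 3 shares no run above 6 bases with the other INSL3 sequences.

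**Figure D2:**
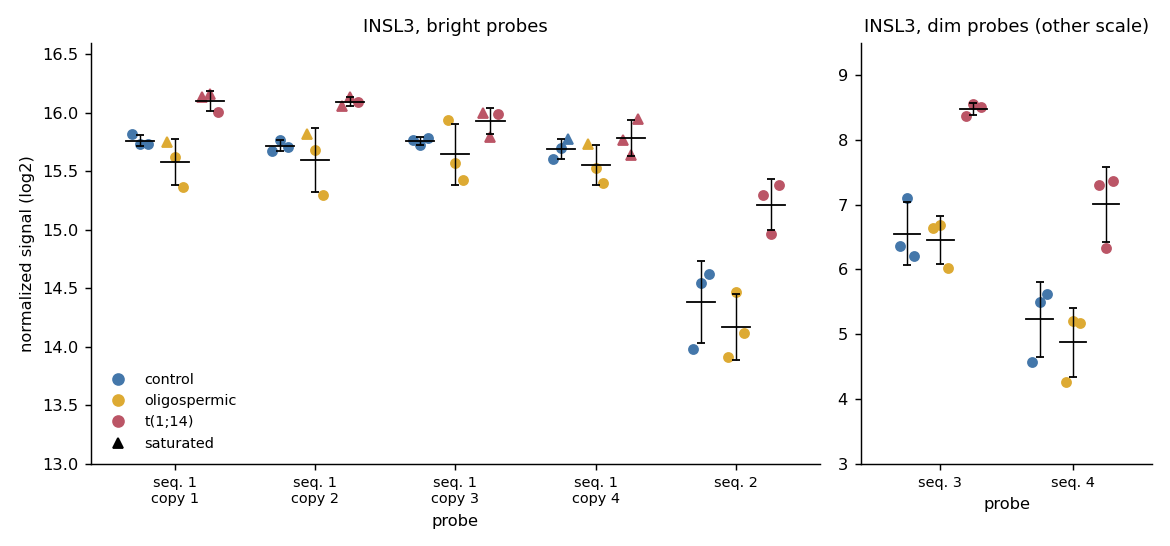
INSL3 signal on the 9 arrays. The y axes are the quantile-normalized signal on the log2 scale, on separate scales for the bright and the dim probes, and the x axes the 7 probes (4 copies of seq. 1, then seq. 2 to 4). Points are arrays, triangles mark saturated spots, bars are the group mean ± SD. The t(1;14) arrays carry most of the saturated spots in the copies of seq. 1 and stand apart above control in seq. 2 to 4.

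Across the 7 INSL3 probes, 6 had t(1;14) above control without overlap, beside 35.4% of all probes, a description of the contrast that the choice used. Between oligospermic and control no INSL3 probe passed the limma test, with differences of -0.35 to -0.10, adjusted p of 0.599 to 0.928 and no unadjusted p below 0.166. The groups overlapped in all 7. For the unsaturated sequence 2 the difference was -0.21 with a 95% interval of -0.71 to 0.28. In the oligospermic group RLN2 thus lay 1.24 to 1.78 above control and INSL3 0.10 to 0.35 below it, neither past the threshold, and the difference between the 2 genes was not tested.

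**Figure D3:**
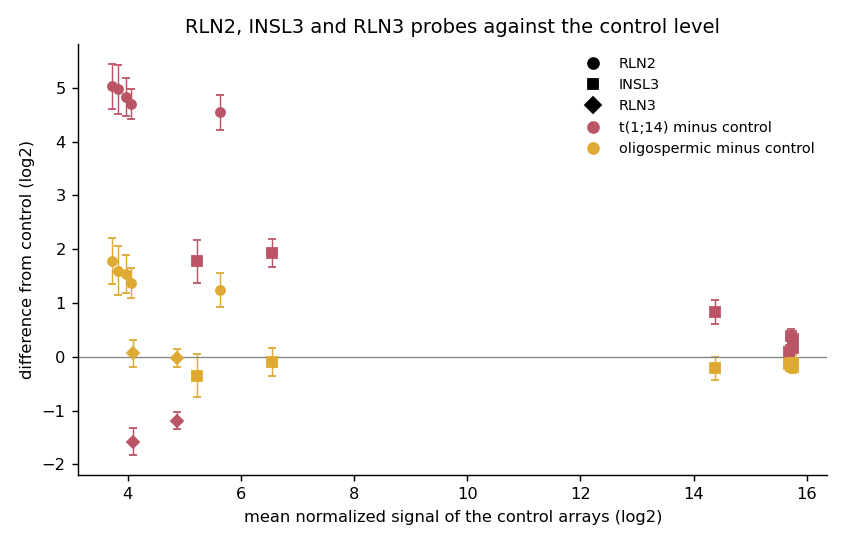
Difference from control of each RLN2, INSL3 and RLN3 probe (y axis, log2, ± SE of the fit) against its mean signal on the control arrays (x axis, log2). Colour gives the group compared with control and shape the gene. RLN2 lies at 4.54 to 5.03 for t(1;14), and the INSL3 differences for t(1;14) are 1.78 and 1.92 in the dim probes, 0.83 near a level of 14.4 and 0.09 to 0.38 near 15.7, in the copies with saturated spots.

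Of 4 further genes of the insulin and relaxin family, RLN3, INSL6, IGF1 and IGF2, 2 fell in t(1;14) and none rose at an adjusted p of at most 0.01, with a median of -0.59, beside 21.9% of all genes that fell, 21.2% that rose and a median of 0.09. RLN3, a peptide best known from the brain, was dim. Its brighter probe gave a log2 signal of 4.77, 4.93 and 4.93 in control, 4.69, 4.74 and 5.13 in oligospermic, and 3.46, 3.70 and 3.91 in t(1;14), where it was well above background on 1 of 3 arrays. RLN3 fell by 1.19 log2 units with an SE of 0.16 (limma adjusted p = 0.00045). Its other probe, of the same sequence, did not clear the background on any of the t(1;14) arrays, and its limit is at least 1.40-fold lower there. INSL6, a peptide of male germ cells that lies beside RLN2 on chromosome 1, fell by 0.56 (SE 0.12, limma adjusted p = 0.00428), though only 1 of its 4 probes passed. IGF1 was at -0.62 (SE 0.16) and IGF2 at 0.04 (SE 0.15). In oligospermic testis 0 of the 4 genes passed in limma, beside 0.212% of all genes, 1 had an unadjusted p under 0.05 and the median was -0.05.

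Of the 4 receptors, RXFP1, RXFP2 and RXFP4 were at or near background in these biopsies and RXFP3 was dim. RXFP1, the receptor of relaxin, was well above background on 1 of 9 arrays with 1 of its 3 probes, at 18.2 units on control array 2, and on none with the others. RXFP2, the receptor of INSL3, reached it on control array 3 alone, at 16.0 units, and was not well above background on the other arrays. Neither was tested, and a low signal of one array probe gives no bound on the receptor protein. RXFP4 was not well above background on any array. RXFP3, the receptor of RLN3, was measured on all arrays at 5.25 ± 0.37 in control, 5.39 ± 0.29 in oligospermic and 5.87 ± 0.68 in t(1;14), and differed from control by 0.63 in t(1;14) (SE 0.34, limma adjusted p = 0.155) and by 0.15 in oligospermic (SE 0.34, limma adjusted p = 0.92).

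Genes that act after the receptor moved in both directions. Of 11 tested genes of G protein and cyclic AMP signalling, 3 rose and 5 fell in t(1;14), beside 21.2% of all genes that rose and 21.9% that fell, with a median of -0.18 beside 0.09. Those that rose were GNAS, the stimulatory G protein subunit, by 0.95 (SE 0.13), PDE4D by 0.67 (SE 0.15) and GNAI2 by 0.47 (SE 0.11). PDE4D passed in 1 of its 2 tested probes. Those that fell included PRKAR2A, a regulatory subunit of protein kinase A, by 1.80 (SE 0.17), and CREB1, the transcription factor that this kinase phosphorylates, by 1.66 (SE 0.11). GNAI3, PRKAR1A and PDE4B fell by 0.91, 0.45 and 1.57, PDE4B in 1 of its 3 probes. None reached the fold threshold of the study. GNAI2, PDE4D and PRKAR1A no longer passed with replicate number as a block, but did with slide as a block. Which cells of the testis the RNA of these genes came from was not measured, so their values do not speak for the cells that respond to relaxin.

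Among the matrix and vascular genes that relaxin is known to act on, 1 of 11 tested rose in t(1;14) and none fell, with a median of 0.37, beside 21.2% of all genes that rose, 21.9% that fell and a median of 0.09. The gene was VEGFA, a growth factor of blood vessels, which rose by 1.38 (SE 0.27, limma adjusted p = 0.00313). It passed in 1 of its 2 tested probes, of 6 on the array. The gelatinase MMP2 was at 0.37 (SE 0.22), the collagen COL1A2 at 0.45 (SE 0.25) and the nitric oxide synthase NOS2 at 0.69 (SE 0.26), and none of these passed. Of 5 tested genes of prohormone processing, PCSK2, a convertase of secretory granules, fell by 1.64 (SE 0.30), with 1 of 3 t(1;14) arrays well above background, and no other passed with its brightest probe. That is a share close to the 21.9% of all genes that fell, and so no result about the list. PCSK1 was at 1.34 with an SE of 0.74, CPE at 0.48 with an SE of 0.18 and FURIN at -0.17 with an SE of 0.18.

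Of the 9 tested genes known to regulate INSL3 transcription, 2 rose in t(1;14), none fell, and the median was 0.45. That count is near the 21.2% of all genes that rose and is no result about the list. NR5A1, the nuclear receptor SF-1 that drives steroid and INSL3 genes, was at 7.01 ± 0.14 in control and 8.01 ± 0.01 in t(1;14), a rise of 1.00 (SE 0.10, limma adjusted p = 9.82e-05). It passed in 2 of its 4 probes. KLF6 rose by 1.04 (SE 0.18) in 1 of 4 probes. NR2F2 was at 0.68 (SE 0.21), NR0B1 at 0.45 (SE 0.16), JUN at 0.16 (SE 0.19), GATA6 at -0.20 (SE 0.50), GATA4 at -0.29 (SE 0.26) and MEF2A at -0.48 (SE 0.14), all short of the threshold with the brightest probe. With dimmer probes, NR0B1 passed as higher in 4 of its 5 probes and MEF2A as lower in 2 of 4. In oligospermic testis 0 of the 9 passed and 0 had an unadjusted p under 0.05.

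The steroid genes of the Leydig cell were high along with RLN2. All 11 tested genes of this list were well above background on all 9 arrays, 10 rose in t(1;14) and none fell, beside 21.2% of all genes that rose, with a median of 1.68 beside 0.09. Of these, 5 passed the fold threshold too, beside 1.51% of all genes, namely STAR, which carries cholesterol into the mitochondrion, at 3.72 (SE 0.27), LHCGR, the receptor of luteinizing hormone, at 2.73 (SE 0.19), CYP11A1 at 2.57 (SE 0.14) and CYP17A1 at 2.30 (SE 0.19), which turn cholesterol into androgens, and SCARB1, a receptor for lipoprotein cholesterol, at 2.28 (SE 0.16). FDXR, CYB5A, FDX1, HSD3B1 and POR rose by 0.54 to 1.68. HSD3B1 passed in 1 of its 2 probes and POR in 1 of 3. CYP19A1 was at 0.29 (SE 0.14, limma adjusted p = 0.106). The mean log2 level of the list lay between 11.09 and 11.25 in control, 11.10 and 11.41 in oligospermic, and 12.81 and 12.92 in t(1;14).

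In oligospermic testis none of the 11 Leydig genes passed in limma, 4 had an unadjusted p under 0.05, and the median was 0.06. LHCGR was at 0.94 (SE 0.19, limma adjusted p = 0.0653) and HSD3B1 at 0.55 (SE 0.12, limma adjusted p = 0.0831), while CYP11A1 was at -0.38 (SE 0.14) and CYP17A1 at 0.08 (SE 0.19).

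**Figure D4:**
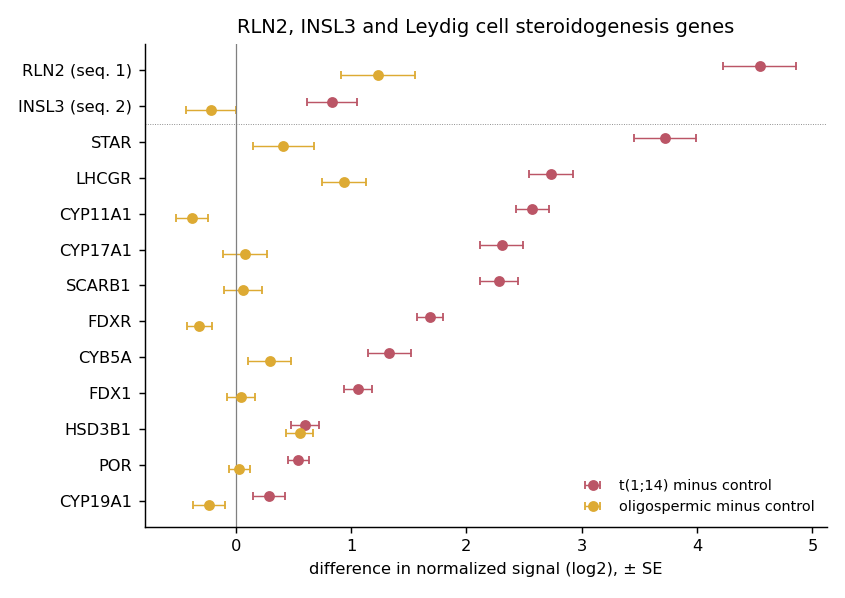
Differences from control on the log2 scale (x axis, ± SE of the fit) for RLN2 with seq. 1, INSL3 with the unsaturated seq. 2 and the 11 tested Leydig cell steroidogenesis genes (y axis). In t(1;14) RLN2 lies at 4.54 and the list between 0.29 and 3.72. In oligospermic testis RLN2 lies at 1.24 and the list between -0.38 and 0.94.

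Markers of other cells also differed between t(1;14) and control, and their part in the levels of RLN2 and INSL3 was not tested. Of 8 tested spermatid genes 5 fell and none rose, beside 21.9% of all genes that fell, and ODF1 (-2.52), ACRV1 (-2.40) and AKAP4 (-2.27) passed the fold threshold, beside 5.42% of all genes that were called lower. The mean level of that list lay between 14.55 and 14.67 in control, 14.54 and 14.58 in oligospermic, and 13.35 and 13.50 in t(1;14), but 5 of the 8 genes had saturated spots, so these means hold readings at the ceiling. PRM1 was saturated on all arrays, PRM2 and ODF2 on all control and oligospermic arrays, TNP1 on these and 2 t(1;14) arrays, and TNP2 on 1 control and 3 oligospermic arrays. The falls of ODF2 and TNP2 therefore have no size here. The counts of the other marker lists are small and stand beside 21.2% of all genes that rose and 21.9% that fell, and nothing is read from them. Of 9 Sertoli cell genes, TF fell by 2.72 and WT1 by 1.43, and the median was 0.15. Of 7 peritubular and vascular genes PECAM1 and VWF rose by 1.41 and 0.91 and CNN1 fell by 1.09. CD14 rose by 1.30, and CD163, the other tested immune marker, was at 0.50 (SE 0.25). The spermatogonial genes UCHL1 and KIT rose by 0.87 and 0.83 and DDX4 fell by 0.91. The spermatocyte genes HORMAD1 and TEX101 rose by 0.97 and 0.92 and SPO11 fell by 1.03. KIT passed in 2 of its 8 probes and SPO11 in 2 of 4. Between oligospermic and control, SPO11, which cuts DNA to start meiotic recombination, was the only gene of these marker lists that passed, at -2.14 (SE 0.20, limma adjusted p = 0.00328). It no longer passed with replicate number or slide as a block.

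The genes whose profile lay nearest to RLN2 included STAR and a pair of aromatase genes. The measure was the root mean square difference of the log2 values over the 9 arrays, each gene taken relative to its control mean, over 6602 genes. CYP19A3 was nearest at 0.52 units, followed by FOLR1 (0.56), STEAP4 (0.58), CYP19A2 (0.70) and STAR (0.71). CYP19A3 and CYP19A2 are members of the aromatase family of the pig, which turns androgens into estrogens. They are near-identical copies with CYP19A1, and how the array probes divide the signal among them is uncertain. In t(1;14) CYP19A3 was 3.73 (SE 0.26) and CYP19A2 3.56 (SE 0.31) above control. In oligospermic testis they stood at 1.23 (SE 0.26, limma adjusted p = 0.073) and 1.09 (SE 0.31, limma adjusted p = 0.166), close in size to the 1.24 of RLN2 and likewise short of the threshold. FOLR1, a folate receptor, was at 3.66 (SE 0.28) in t(1;14) and 0.96 (SE 0.28) in oligospermic. STEAP4, a metalloreductase, did not clear the background on any of the control arrays, so its value in t(1;14) is a limit of at least 10.3-fold higher. These genes were picked for likeness over all 9 arrays, the oligospermic ones included. Their closeness to RLN2 in either group follows from that choice and carries no test.

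**Figure D5:**
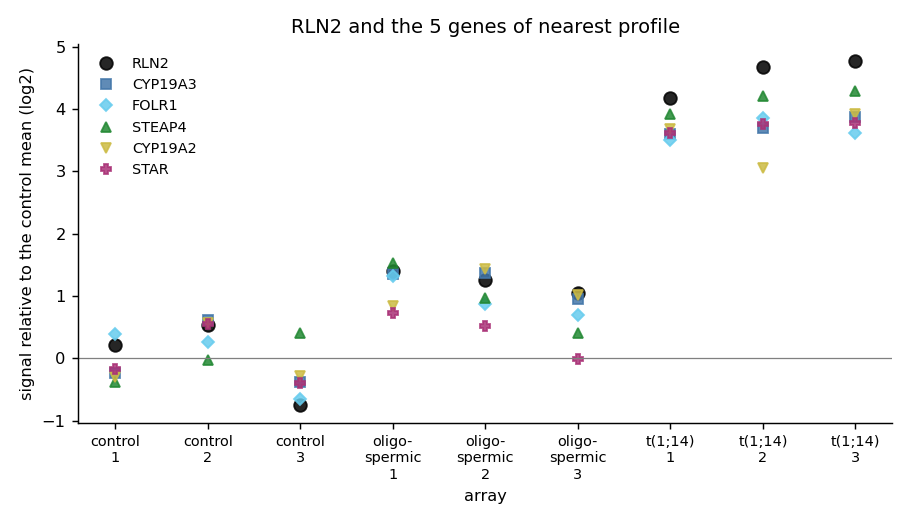
Signal on each of the 9 arrays (x axis) relative to the mean of the control arrays (y axis, log2) for RLN2 and the 5 genes nearest to it. All 6 lie above 3 on the t(1;14) arrays. RLN2 has the highest value on each t(1;14) array and the lowest on control array 3.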

How the data were processed

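Per the methods, RNA of testis biopsies was labelled with 1 dye, cyanine 3, and put on a customized porcine Agilent array that was read with Feature Extraction. The deposited spot values are an intensity after background subtraction and detrending, with no step between arrays. A deposited table of log2 values by the authors covers 38759 probes and is already quantile normalized, and it served as an alternative. Flags for background, outliers and saturation were deposited with each spot.

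Processed intensities of the 60889 probes were brought to the log2 scale, with quantile normalization of all 9 arrays together, and 41105 probes well above background without an outlier flag on at least 2 of 3 arrays of a group were fitted in a 3-group model with limma 3.58.1 (R 4.3.3) and Benjamini-Hochberg adjustment. A mean of log2 values ± SD is over 3 arrays, and an SE is from the fit. For gene lists, the probe with the highest mean signal stood for a gene. Limits use the lowest signal well above background of each array. Probes were named through a RefSeq table (Sscrofa11.1), which matched 20429 of them. Python 3.11.15, pandas 2.3.3, Biopython 1.88 and matplotlib 3.10.9 were used. The members and lists were chosen with earlier results of these data known. Named genes are the members, list genes that pass or that a count turns on, receptors and regulators, the 5 nearest profiles and the chromosomal neighbours. The value of 1 gene on a list is not reported here.

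Tested on simulated data with 200 probes changed by 3 log2 units among 41105, the fit called 89% of them for t(1;14) against control and 88% for oligospermic against control. Arrays of the same replicate number deviated together between oligospermic and control, at correlations of 0.48, 0.14 and 0.10, where the number coincides with the slide. Between t(1;14) and control the correlations were -0.28, -0.19 and 0.14 by replicate number and 0.34, 0.11 and 0.12 by slide.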

Additional observations from a re-analysis of the deposited data

How the results depend on the processing

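The RLN2 difference between t(1;14) and control stayed between 3.49 and 5.03 under every alternative run. It was 3.49 with normexp background correction (offset 50), 3.88 with the median signal without background subtraction and 5.03 with another copy of sequence 3, and 4.17 to 4.81 when an array was left out. RLN2 in t(1;14) minus oligospermic was 2.83 with normexp. RLN2 in oligospermic minus control stayed positive and short of the threshold under all, with 0.67 to 1.78 and an adjusted p of 0.0504 (slide as a block) to 0.354 (without oligospermic array 2), and 0.209 with replicate number as a block. Of the 41 list genes that passed at the adjusted p between t(1;14) and control, 36 still did with the replicate block, without INSL6, GNAI2, PRKAR1A, PDE4D and TEX101. With slide as a block all 41 did, and IGF1, PCSK1 and PRKACB were added. The 9 that also passed the fold threshold were the same under both. SPO11 between oligospermic and control was lost under both.

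INSL3 depended on the probe. In t(1;14) minus control it read 0.17 and 0.094 in copies 3 and 4 of sequence 1. These group means hold saturated spots and have no size. INSL3 read 0.83, 1.92 and 1.78 in sequences 2, 3 and 4. In t(1;14) minus oligospermic it was 0.28, 0.23, 1.05, 2.03 and 2.13 in the same order, and 0.36 with the median signal. With saturated spots left out, an alternative chosen after seeing the data, copy 1 gave 0.24 against control and 0.51 against oligospermic, values that rest on t(1;14) array 3 alone. INSL3 in oligospermic minus control stayed negative.

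Probes called between t(1;14) and control numbered 1007 with normexp and 1283 with the median signal, and between t(1;14) and oligospermic 1091 and 1404. Between oligospermic and control they numbered 15 with normexp, 22 with the median signal, 29 with the 6 arrays alone, 27 with a filter in every group, 30 with the replicate block and 33 to 126 when an array was left out. The list genes called between t(1;14) and control numbered 9, and 8 with normexp. The cause of these shifts was not tested. RLN2 in control lies near the background and sequence 1 of INSL3 near saturation, which limits both differences, while sequences 2 to 4 of INSL3 had no saturated spot.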

Other observations

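The genes beside RLN2 on chromosome 1 moved in both directions. In the gene order of the Sscrofa11.1 annotation, all 10 nearest protein-coding genes, 5 on each side, were tested. With the brightest probe 5 of the 10 rose in t(1;14) and 2 fell, beside 21.2% and 21.9% of all genes. In t(1;14) against control, PLGRKT, the neighbour on one side, rose by 1.88 log2 units (SE 0.20) in all 4 of its probes, and INSL6, on the other side, fell by 0.56. ERMP1 fell by 2.42 (SE 0.20), JAK2 rose by 0.92 (SE 0.16) in 1 of 3 probes and CDC37L1 by 0.57 (SE 0.12) in both of its probes. RIC1 was 0.51 higher with one probe and lower with another. PDCD1LG2, counted among the 5 that rose, passed the filter through its t(1;14) arrays alone, with 1 of its 5 probes. It did not clear the background on any of the control arrays, and its limit is at least 1.34-fold higher. AK3 did not pass with its brightest probe, at 0.73 (SE 0.22), while 4 of its 6 probes passed as higher. CD274 and RCL1 did not pass, at 0.58 (SE 0.32) and -0.26 (SE 0.19). CD274 was well above background on 1 of 3 t(1;14) arrays and 1 of 3 control arrays. None of the 10 passed between oligospermic and control, where ERMP1 was at -0.94 (SE 0.20, limma adjusted p = 0.0748) and the other 9 between -0.06 and 0.33. The distance of RLN2 from the breakpoint of the translocation was not analysed here.

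INSL3 lies on chromosome 2, which takes no part in the translocation. Of its 10 nearest genes 3 were tested, SLC5A5 at -0.18 (SE 0.24), JAK3 at 0.45 (SE 0.13) and FCHO1, which fell by 2.04 (SE 0.13). With the saturated sequence 1, the 5 nearest profiles to INSL3 were those of PUS1, LDOC1, RPS29, ASB6 and NSUN2, at 0.065 to 0.093 log2 units, and their differences between t(1;14) and control were 0.27 to 0.40. With the unsaturated sequence 2, a measure added after seeing the data, ENSA, NDRG1, TBL1X and ADIPOR1 were among the 5 nearest, at 0.14 to 0.16 units. Sequence 1 was saturated on 2 of 3 t(1;14) arrays, so nothing is read from the first set.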
